A study of Mus musculus with 2 samples.

Results

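MC3T3-E1 is a clonal pre-osteoblast line from mouse calvaria, and here the messenger RNA levels of 10 glycolytic enzyme genes were followed in MC3T3-E1 cells cultured with formaldehyde at 100 µM or at 300 µM. The genes are Hk1, Hk2, Gpi1, Pfkl, Pfkp, Aldoa, Gapdh, Pgk1, Eno1 and Pkm. They are enzymes of the pathway chosen with earlier results of these data known, and they leave out others such as Tpi1, Pgam1 and Pfkm. Each was looked up by mouse symbol through the NCBI gene number of its row. All 10 were found among the 17215 genes listed in each table, and all 10 passed the minimum of a mean of 1 FPKM over the 2 libraries, as did 10123 genes in all. The labels name no engineered allele, and the 2 groups share line, medium and serum and differ in the formaldehyde concentration. Each dose is 1 library, the labels give no length of exposure, and untreated cells were not analysed here. A difference below is therefore one between 2 libraries with no replicate check, and no p-value was computed.

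Glycolysis breaks glucose down to pyruvate in 10 enzymatic steps. The upper steps spend ATP to phosphorylate the sugar and split it into 3-carbon phosphates, and the lower steps recover ATP and NADH. Hexokinase, phosphofructokinase and pyruvate kinase catalyse the irreversible steps, and the isozymes of the hexokinase and phosphofructokinase steps differ in tissue distribution and control. Osteoblasts are known for drawing much of their ATP from glycolysis even when oxygen is present.

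The level used is FPKM, which corrects fragment numbers for transcript length and library size, so levels of different genes can be set side by side. Where a pair of FPKM values is given, the 100 µM library comes first and the 300 µM library second. The difference between doses is the log2 ratio, log2((FPKM at 300 µM + 1)/(FPKM at 100 µM + 1)), and a gene is counted as higher or lower at 300 µM when it is at or beyond 2-fold on this scale. Intervals in brackets are 95% counting intervals from estimated read numbers and cover counting error only. The libraries held an estimated 18500000 and 19400000 fragments.

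Messages that mark the osteoblast lineage were present at both doses. Col1a1, the main collagen chain of bone, stood at 2065 and 1714 FPKM. Of the transcription factors of the lineage, Sp7 stood at 7.21 and 9.47 FPKM and Runx2 at 7.99 and 3.60 FPKM. Of 10 osteoblast markers, 7 were at 1 FPKM or more in the 100 µM library and 8 in the other. The difference was Alpl, which lay near that limit in both (0.98 and 1.06 FPKM). Ibsp was also low (1.83 and 1.77 FPKM), while Bmp2 was listed at 0 in both and Bglap (osteocalcin) at 0 and 0.49 FPKM. Of 6 chondrocyte markers, Col2a1 (322 and 350 FPKM) and Sox9 (61.4 and 9.78 FPKM) were above 1 FPKM, and Acan and Matn1 were listed at 0 in both. No marker of adipocytes or endothelium reached 1 FPKM, and the macrophage list summed to 16.3 and 27.7 FPKM. That sum came mostly from Lyz2 (13.2 and 26.5 FPKM), whereas Cd68 stood at 2.57 and 0.77 FPKM. In a bulk sample, fewer cells of a type and less RNA per cell cannot be told apart.

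Hk2 stood apart from the other 9 genes. It was 1 of 10 genes at least 2-fold lower at 300 µM, beside 29.8% of all genes compared, and 0 of 10 were at least 2-fold higher, beside 6.09% of all genes. The other 9 genes had log2 ratios of 0.25 to 0.71, so that 9 of 10 lay above 0, where 40.4% of all genes did. The median log2 ratio of the 10 genes was 0.38 and that of all genes compared was -0.30. These small positive ratios depend on the scale: with both tables scaled to equal sums the median of the 10 became 0.017 and Pfkp, Pgk1 and Pkm lay below 0 with Hk2, whereas centring on the median gene raised it to 0.68 and brought Pfkl to 2-fold. The calls over all genes moved in the same way, from 616 higher and 3020 lower as deposited to 279 and 4098 with equal sums and to 1472 and 2261 after centring.

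**Figure D1:**
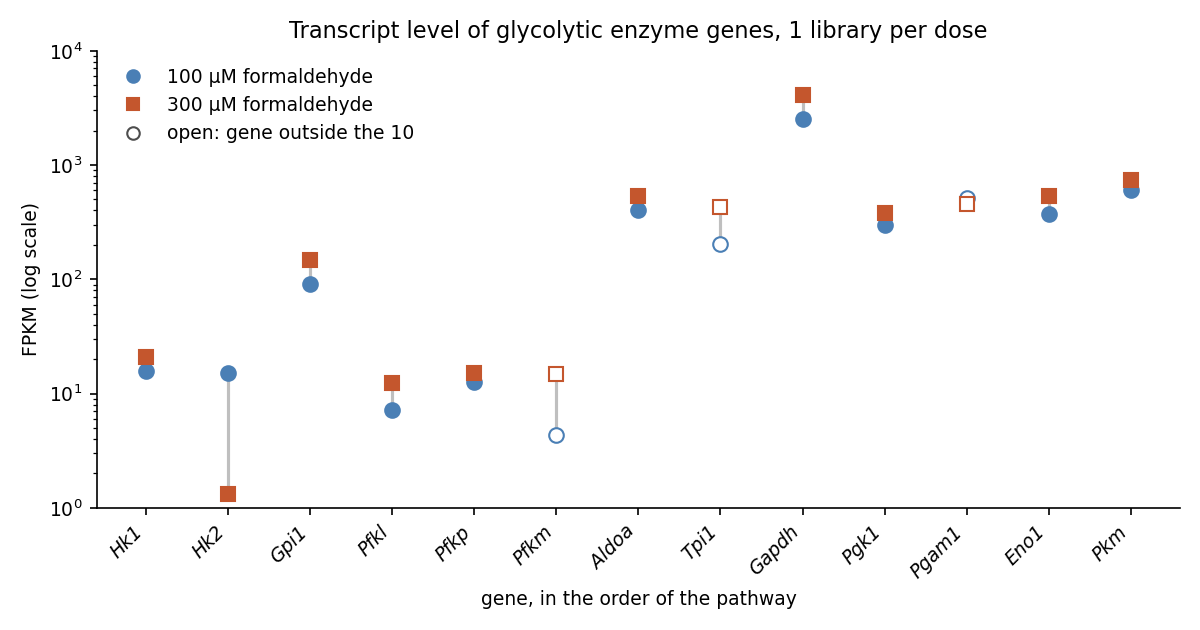
FPKM (log axis) of each glycolytic gene in the order of the pathway at 100 µM (blue circles) and 300 µM (red squares), 1 library per dose, with grey lines joining the doses and open symbols for Pfkm, Tpi1 and Pgam1, which are outside the 10. Hk2 drops from 15.1 to 1.33 FPKM, while the other filled pairs lie close together and slightly higher at 300 µM.

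Hexokinase commits glucose to the cell by phosphorylating it, and the 2 hexokinase genes went in opposite directions. Hk1, the widely expressed isozyme, stood at 15.9 and 20.8 FPKM. Hk2, the isozyme known as inducible and as a target of insulin, hypoxia and MYC signalling, stood at 15.1 and 1.33 FPKM. The levels of Hk1 and Hk2 were thus nearly equal at the lower dose, with overlapping counting intervals, and far apart at the higher. The log2 ratio of Hk2 was -2.79 [-2.93 to -2.64], from an estimated 1544 and 142 reads, and that of Hk1 was 0.37 [0.27 to 0.47]. Hk2 held 48.8% of the summed hexokinase FPKM of these 2 genes at 100 µM and 6.0% at 300 µM, a share that does not depend on the scaling between libraries. Their sum went from 31.0 to 22.2 FPKM as deposited, a difference that, unlike the share, depends on the scaling. Its log2 ratio was -0.46, beside a median of -0.30 over all genes compared. Hk3, a further hexokinase gene, stood at 0.05 and 0.16 FPKM.

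Of the 10123 genes compared, 215 had a log2 ratio at or below that of Hk2. Hk2 has the longest transcript of the 10 (5513 bases), and long transcripts were lower at 300 µM across the whole table. The 1918 genes with transcripts of at least 5000 bases had a median log2 ratio of -0.996, and 49.9% of them were at least 2-fold lower, whereas the 592 genes under 1000 bases had a median of 0.70. Among 513 genes that share both this length and a mean of 5 to 10 FPKM, 31 were as low as Hk2. With the trend on transcript length and GC content removed, Hk2 still had a log2 ratio of -2.49. Hk2 shares none of its 50-base words with another gene, so its level does not rest on a near-identical copy.

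**Figure D2:**
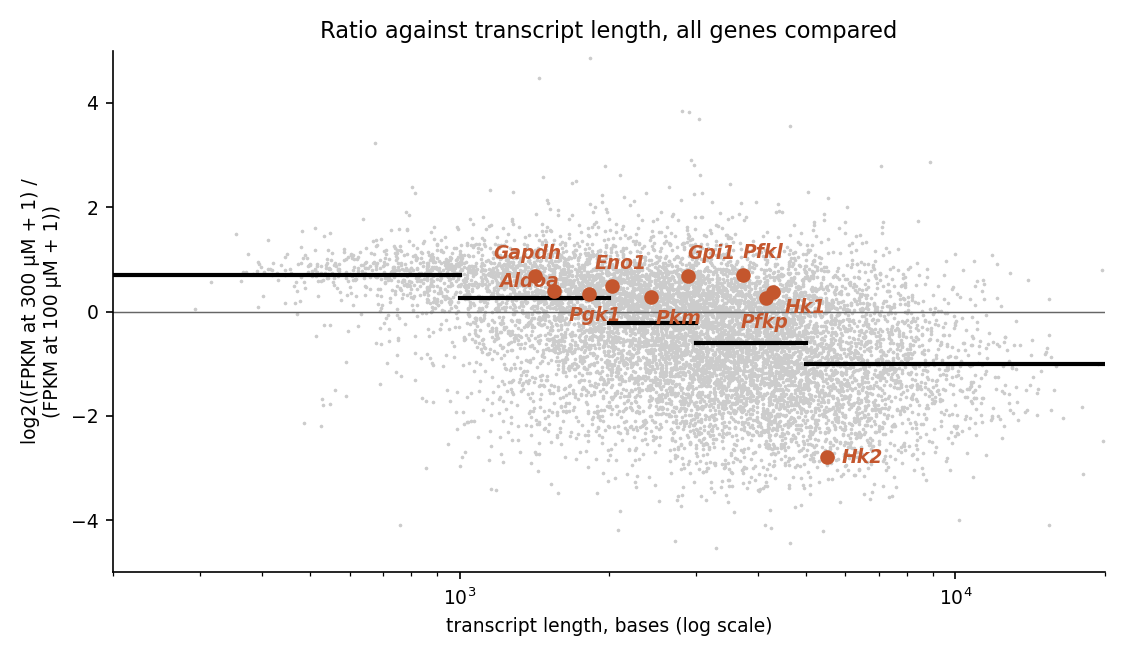
Log2 ratio of 300 µM to 100 µM against transcript length (log axis) for the genes compared that have a transcript length (grey points), with the median of each length class as a black bar and the 10 glycolytic genes in red. The bars step down from 0.70 for the shortest class to -0.996 for the longest, and Hk2 lies below the bar of its class while the other 9 genes lie above theirs.

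The sequences before the start sites of Hk2 and Hk1 are shown because these isozyme genes of the same step diverged, and that of Pgk1 because it is a textbook gene of the hypoxia response. Capitals mark ACGTG or GCGTG on either strand (CACGT and CACGC on the strand printed), the core letters bound by hypoxia-inducible factors. Each run gives the 250 bases up to the start site, 5′ to 3′ on the strand of the gene, from RefSeq on GRCm38.p6. Hk2 (chr6:82774455-82774704, minus strand) has 2 matches, the distal start of Hk1 (chr10:62379909-62380158, minus strand) has 0, the proximal start of Hk1 (chr10:62340422-62340671, minus strand) has 3, of which 2 overlap, and Pgk1 (chrX:106186850-106187099, plus strand) has 2.
Hk2: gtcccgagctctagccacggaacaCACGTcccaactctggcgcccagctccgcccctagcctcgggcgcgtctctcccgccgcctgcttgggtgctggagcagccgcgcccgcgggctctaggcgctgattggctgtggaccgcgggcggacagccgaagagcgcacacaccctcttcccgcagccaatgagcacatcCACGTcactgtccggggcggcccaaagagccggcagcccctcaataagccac
Hk1 distal start: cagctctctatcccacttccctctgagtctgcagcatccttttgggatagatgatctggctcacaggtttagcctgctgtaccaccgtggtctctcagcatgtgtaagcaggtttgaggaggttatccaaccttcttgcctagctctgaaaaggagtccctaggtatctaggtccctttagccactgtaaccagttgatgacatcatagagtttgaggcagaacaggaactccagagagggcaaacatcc
Hk1 proximal start: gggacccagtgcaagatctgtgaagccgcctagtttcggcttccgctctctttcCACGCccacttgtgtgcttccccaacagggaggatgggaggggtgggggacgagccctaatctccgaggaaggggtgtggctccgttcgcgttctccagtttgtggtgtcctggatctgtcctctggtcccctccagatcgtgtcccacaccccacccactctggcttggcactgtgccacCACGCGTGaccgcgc
Pgk1: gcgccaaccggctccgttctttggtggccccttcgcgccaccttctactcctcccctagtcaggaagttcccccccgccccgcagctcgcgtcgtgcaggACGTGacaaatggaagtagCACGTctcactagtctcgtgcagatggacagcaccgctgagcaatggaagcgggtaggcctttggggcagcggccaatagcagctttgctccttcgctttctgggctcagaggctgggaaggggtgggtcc

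All 10 genes had at least 1 window in the table, 16 windows in all. These are not separate stretches, since neighbouring starts of Aldoa and of Eno1 have overlapping windows that hold the same matches. ACGTG or GCGTG was found in 12 of the 16 windows and in 9 of the 10 genes, Gpi1 being the gene without it, beside 38.6% of all 32851 windows and 63.7% of the 8238 genes compared that have a window. The E-box CACGTG, which contains ACGTG, was in 0 of the 16 windows and in 6.02% of all windows. Hk2 and Pgk1 each had 2 matches of ACGTG in a single window and had log2 ratios of -2.79 and 0.35. Which start site the cells used was not measured by gene-level values, and a match describes letters only.

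Gpi1, glucose phosphate isomerase, converts the product of hexokinase to the fructose form. It stood at 90.8 and 146 FPKM, a log2 ratio of 0.68 [0.63 to 0.73]. Its level exceeded the summed level of both hexokinase genes at either dose.

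Phosphofructokinase carries out the committed step of the pathway, and its genes were the lowest of the 10 at 100 µM. Pfkl, the liver-type subunit, stood at 7.14 and 12.3 FPKM with a log2 ratio of 0.71 [0.56 to 0.86], the largest of the 10 but with an interval that overlaps those of Gapdh and Gpi1. Pfkp, the platelet-type subunit, stood at 12.7 and 15.3 FPKM with a log2 ratio of 0.25 [0.14 to 0.37], the smallest among the 9 genes above 0, with an interval that overlaps those of Pkm, Pgk1, Aldoa and Hk1. Pfkp shares 17.1% of its words with the neighbouring gene Pitrm1 (53.4 and 40.6 FPKM), and whether reads were assigned by strand is not given in the sources used here.

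The muscle-type subunit gene Pfkm, outside the 10, differed more between doses than either. It stood at 4.35 and 14.9 FPKM, a log2 ratio of 1.57 that was 1.29 with equal sums. Counting all 3 phosphofructokinase genes, the summed level went from 24.2 to 42.4 FPKM, and the share of Pfkp from 52.4% to 36.0% while that of Pfkm went from 18.0% to 35.0% and that of Pfkl stayed near 29% (29.6% and 29.0%). Skeletal muscle markers summed to 3.98 and 11.0 FPKM, nearly all from Acta1 (3.29 and 10.1 FPKM), while Myog was listed at 0 in both and Myod1 at 0 and 0.03 FPKM. The part of such markers in the level of Pfkm was not tested.

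**Figure D3:**
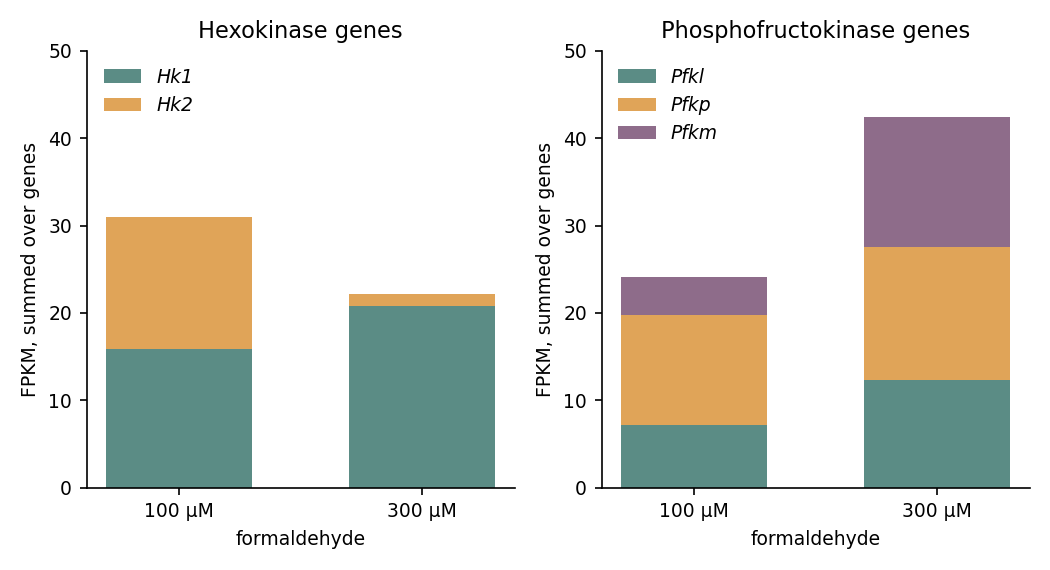
Stacked FPKM of the hexokinase genes (left) and phosphofructokinase genes (right) at 100 µM and 300 µM, 1 library per dose, bars starting at 0. The Hk2 part shrinks from 15.1 to 1.33 FPKM, and the Pfkm part grows from 4.35 to 14.9 FPKM.

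Below phosphofructokinase the levels were higher by an order of magnitude or more. Aldoa, the aldolase that splits the sugar bisphosphate, stood at 404 and 530 FPKM, a log2 ratio of 0.39 [0.36 to 0.43]. Tpi1, triosephosphate isomerase, which is outside the 10, stood at 204 and 425 FPKM and passed 2-fold with a log2 ratio of 1.05, but not with equal sums (0.68) or with the length and GC trend removed (0.58).

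Gapdh, which oxidises glyceraldehyde phosphate and yields NADH, was the most abundant of the 10 at both doses. It stood at 2531 and 4076 FPKM, a log2 ratio of 0.69 [0.67 to 0.70], and ranked 21 and 24 among all listed genes. Gapdh alone held 58.1% of the summed FPKM of the 10 genes at 100 µM and 63.1% at 300 µM. Its sequence is the most widely copied of the set. Of the 1371 words of 50 bases in its transcript, 82.5% occur in transcripts of other genes, 222 genes in all, with the predicted gene Gm7336 alone holding all of those words. Only 2 of the 222 are listed in the tables, at no more than 0.80 FPKM. The processing notes list RSEM, but the annotation is not given, so whether the unlisted copies could receive reads is unknown. The level of Gapdh is uncertain to that extent. Gapdh is widely used as a reference message, and it was not level between these libraries as deposited. Its log2 ratio depends on the scale: 0.13 with the length and GC trend removed, 0.31 with equal sums, 0.99 after centring and 1.08 with a TMM factor. Set against Gapdh, the log2 ratios of Gpi1 and Pfkl differed by -0.0049 and 0.022, those of Hk1, Pfkp, Aldoa, Pgk1, Eno1 and Pkm by -0.43 to -0.19, and that of Hk2 by -3.48.

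Pgk1, phosphoglycerate kinase, makes the first ATP of the lower pathway. It stood at 301 and 383 FPKM, a log2 ratio of 0.35 [0.31 to 0.38]. Pgam1, the mutase of the next step and outside the 10, stood at 515 and 454 FPKM with a log2 ratio of -0.18, which turned to 0.12 after centring.

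Eno1, enolase, stood at 375 and 531 FPKM, a log2 ratio of 0.50 [0.47 to 0.53]. Pkm, pyruvate kinase, stood at 606 and 740 FPKM, a log2 ratio of 0.29 [0.26 to 0.31]. Pkm yields the M1 and M2 isoforms by splicing, which gene-level values do not separate. Copies exist for these genes too. Eno1 shares 72.2% of its words with other genes, foremost Eno1b (listed at 0 and 0.01 FPKM), Pgk1 shares 68.0% and Pkm 34.4%. The share was 13.5% for Aldoa, 2.55% for Hk1 and 0.054% for Pfkl. Gpi1 shares 25.3%, with 122 genes, 85 of them listed. Its largest sharers, Gm1840 (18.6%) and Gm26762 (7.58%), are not listed, and no other gene shares more than 0.49%.

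The order of the 10 levels was nearly the same at both doses apart from Hk2. At 100 µM it ran Gapdh, Pkm, Aldoa, Eno1, Pgk1, Gpi1, Hk1, Hk2, Pfkp and Pfkl, and only the neighbours Hk1 and Hk2 had overlapping counting intervals. At 300 µM Eno1 and Aldoa were level (531 and 530 FPKM, overlapping intervals) and Hk2 had moved to the last place. The span from the highest to the lowest gene went from 354-fold to 3064-fold. The 10 genes together held 0.818% of the summed FPKM of all listed genes at 100 µM and 0.934% at 300 µM. Nearly all of this rise lay with Gapdh, whose level is uncertain because of its copies. Its part of the summed FPKM of the 10 went from 58.1% at 100 µM to 63.1% at 300 µM. Without Gapdh, the joint share of the remaining genes was nearly the same at both doses.

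**Figure D4:**
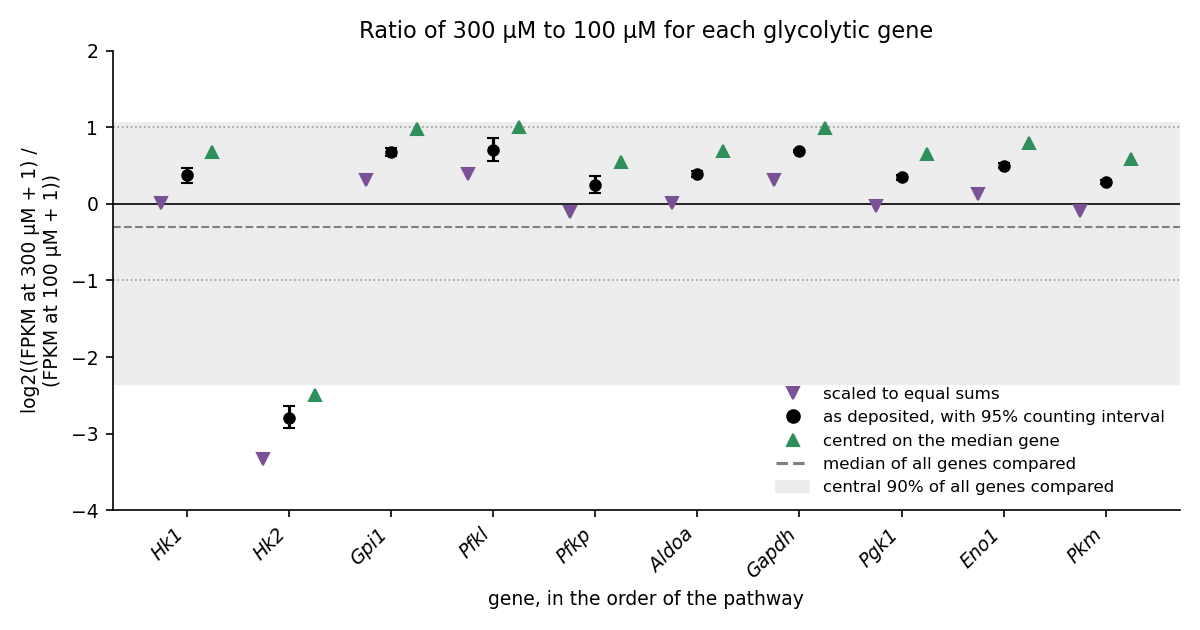
Log2 ratio of each of the 10 genes in pathway order as deposited (black, with 95% counting interval), scaled to equal sums (purple) and centred on the median gene (green), over the central 90% of all genes compared as deposited (grey band) and their median (dashed). Hk2 lies below the band on each of the 3 scales, and the other 9 genes lie between 0.25 and 0.71 as deposited.

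The positive ratios of the abundant members were close to those of other abundant genes. Among the 817 genes averaging 100 FPKM or more, the median log2 ratio was 0.48 and 78.9% lay above 0, and the 6 members in this range, Gpi1, Aldoa, Gapdh, Pgk1, Eno1 and Pkm, had 0.29 to 0.69. The less abundant members differed more from their surroundings. Hk1 and Pfkp lay above 0 in a range of 10 to 20 FPKM where 35.6% of 1947 genes did (median -0.46). Pfkl did so in a range of 5 to 10 FPKM where 28.8% of 1921 genes did (median -0.79).

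The remaining genes listed under core glycolysis, from a list of 18, showed no common direction. Of the 8 compared, 2 were at least 2-fold higher (Pfkm and Tpi1) and 2 lower, beside 6.09% and 29.8% of all genes, with a median log2 ratio of 0.02. The lower ones were Adpgk, which phosphorylates glucose with ADP, at 39.3 and 14.6 FPKM, and Pgam2, the muscle-type mutase, at 4.70 and 0.80 FPKM. Pklr, the pyruvate kinase gene of liver and red cells, was listed at 0 at both doses. The 8 also include Pgam5, which carries the mutase name but encodes a mitochondrial protein phosphatase. Pgam5 stood at 62.3 and 31.3 FPKM (log2 ratio -0.97) and enters the median of 0.02.

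Genes that bring glucose in and carry lactate out differed in both directions. Slc2a1, the glucose transporter GLUT1, stood at 22.7 and 4.62 FPKM, a log2 ratio of -2.07 [-2.23 to -1.92]. Slc16a1, the monocarboxylate transporter MCT1, stood at 42.4 and 11.6 FPKM, a log2 ratio of -1.78. Both were thus lower at 300 µM, as Hk2 was, and stayed beyond 2-fold after centring (-1.77 and -1.48). Their transcripts have 3260 and 4426 bases, and 36.4% of all genes of 3000 to 5000 bases were lower. With the length and GC trend removed the 2 log2 ratios were -2.08 and -1.47. Slc2a6 went the other way, at 0.47 and 3.59 FPKM. In all, 2 of 6 transport genes compared were lower and 1 higher. Their median of -0.27 was close to the -0.30 of all genes, of which 29.8% were lower and 6.09% higher.

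The genes that decide the fate of pyruvate differed in both directions. Ldha, which turns pyruvate to lactate, stood at 484 and 555 FPKM, a log2 ratio of 0.20 that was -0.18 with equal sums. Pdk4, a kinase that holds pyruvate dehydrogenase inactive, stood at 160 and 16.1 FPKM, a log2 ratio of -3.23. Pdp1, a phosphatase that reactivates it, stood at 9.30 and 1.38 FPKM, a log2 ratio of -2.11. The other kinase genes of the complex did not share the ratio of Pdk4: Pdk1, Pdk2 and Pdk3, named after their values were seen, had log2 ratios of 0.41, 0.28 and 0.79. Of 18 genes of pyruvate fate compared, 0 were higher and 4 lower as deposited, beside 6.09% and 29.8% of all genes. The list median as deposited was 0.24. After centring 3 were higher and 2 lower, beside 1472 and 2261 of all 10123 genes.

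Of 8 compared genes known to regulate glycolysis, 4 were at least 2-fold lower at 300 µM and 0 higher, in a table where 29.8% of all genes were lower and 6.09% higher. After centring 3 were lower, beside 2261 of all 10123 genes, and the median log2 ratio as deposited was -0.91. Myc, a transcription factor with glycolytic genes among its targets, stood at 82.2 and 14.2 FPKM (log2 ratio -2.46), and Mlxip (MondoA), a glucose-sensing factor, stood at 9.46 and 1.64 FPKM. Hif1a, the hypoxia-inducible factor subunit, stood at 31.8 and 12.9 FPKM, and its log2 ratio of -1.24 was -0.94 after centring. Tigar, which lowers fructose bisphosphate, stood at 5.54 and 1.61 FPKM (log2 ratio -1.33). Pfkfb3, which raises phosphofructokinase activity, stood at 3.77 and 2.22 FPKM (log2 ratio -0.57). Among the 4 lower as deposited, Mlxip (7303 bases), Hif1a (4724) and Tigar (3651) have long transcripts. Over all genes, 36.4% of those of 3000 to 5000 bases and 49.9% of those of at least 5000 bases were lower. With the length and GC trend removed 3 of the list were lower, beside 2819 of all 10123 genes. Hif1a then had a log2 ratio of -0.85.

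The branches off glycolysis differed by enzyme. In the pentose phosphate pathway 2 of 10 genes were lower and 0 higher, with a median of -0.33, against 29.8% lower, 6.09% higher and a median of -0.30 over all genes. The lower genes were G6pdx, its entry enzyme, at 113 and 48.1 FPKM, and Pgd, the next dehydrogenase, at 124 and 60.9 FPKM. Neither was beyond 2-fold after centring, where the list had 1 gene higher and 0 lower, beside 1472 and 2261 of all 10123 genes. G6pdx and Pgd were beyond 2-fold with equal sums (-1.59 and -1.39) and with the length and GC trend removed (-1.35 and -1.26). On those 2 scales the list had 4 and 3 genes lower, beside 4098 and 2819 of all 10123 genes. The transketolase gene Tkt stood at 92.5 and 99.5 FPKM, a log2 ratio of 0.10 that was -0.27 with equal sums. In the glycogen and hexosamine list 4 of 13 genes were lower and 1 higher as deposited. After centring 2 were lower and 3 higher, beside 2261 and 1472 of all 10123 genes. The list median of -0.30 as deposited equalled that of all genes, and the count of lower genes as deposited was near the 29.8% of all genes. Gfpt1 and Gfpt2, the entry enzymes of hexosamine synthesis, stood at 27.8 and 7.58 FPKM and at 5.26 and 1.15 FPKM. The phosphoglucomutase gene Pgm1 stood at 9.01 and 19.7 FPKM. It was beyond 2-fold as deposited but not with equal sums (0.72) or with the length and GC trend removed (0.84). Pgm2, which carries the same name and was added after its values were seen, went the other way. It stood at 37.1 and 17.0 FPKM, a log2 ratio of -1.08 as deposited.

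In the glycerol, fructose and mannose list 2 of 9 genes were higher and 0 lower, with a median of 0.45, beside 6.09% higher and 29.8% lower over all genes. These were the phosphomannomutase genes Pmm2, at 16.5 and 36.1 FPKM, and Pmm1, at 9.91 and 21.1 FPKM, and neither reached 2-fold with equal sums or with the length and GC trend removed. Of 3 gluconeogenesis genes compared, 1 was higher, Pck2, the mitochondrial phosphoenolpyruvate carboxykinase, at 14.7 and 30.7 FPKM, which also lay within 2-fold with equal sums.

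**Figure D5:**
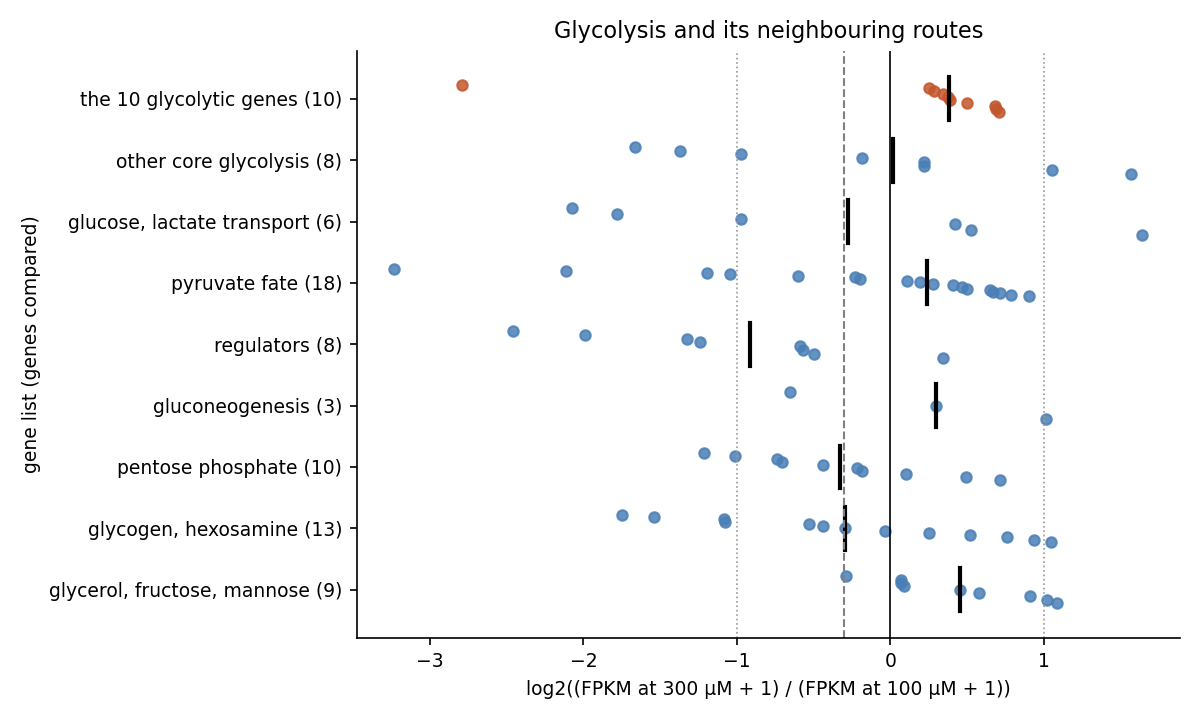
Log2 ratio of 300 µM to 100 µM for each compared gene of the 10 (red) and of 8 neighbouring lists (blue), with the number of genes in brackets, the list median as a black bar, the median of all genes dashed and 2-fold dotted. The 10 cluster between 0.25 and 0.71 except Hk2, while the regulator list lies mostly to the left with a median of -0.91.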

How the data were processed

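RNA was sequenced from MC3T3-E1 cells at 2 formaldehyde doses, with 1 library per dose. The authors deposited FPKM values rounded to 2 decimals in 1 table per library, per the file headers. The submitters' processing notes list the tools Bowtie2 and RSEM. The sources used here give no genome build, annotation or tool version. Symbols were found for 17179 of 17215 rows through RefSeq genes of GRCm38.p6.

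Genes averaging 1 FPKM or more were compared with a pseudocount of 1, which understates the difference of low genes. Because FPKM depends on the library total, the scale was varied. Read numbers were estimated from low values of genes with 1 annotated transcript. Steps of 54 and 51.5 bases per read brought 66.0% of 103 and 64.3% of 70 values to whole reads, with a tolerance of 0.12 reads. The medians over all steps scanned were 20.2% and 20.7%. Counting intervals are exact binomial (ratios) or Poisson (levels) and cover counting error alone, and the labels mention no molecular identifiers.

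Transcript length, GC content and words shared on either strand came from GENCODE release M21, from 1 transcript per gene, the longest among coding transcripts with a RefSeq match where such exist. The members and lists were chosen with earlier results of these data known. Named genes are the 10, up to 2 per list and direction beyond 2-fold, and 10 fixed genes. The ratio calculation was tested on simulated data. The alternatives tried were a pseudocount of 0.1 or 5, omitting the filter or raising it to 10 FPKM, thresholds of 1.5-fold and 3-fold, centring, an unweighted TMM factor and equal sums. Removal of the length and GC trend was chosen after seeing the data. Calculations used scipy 1.17.1, pandas 2.3.3 and numpy 2.4.6 under Python 3.11.15, with figures from matplotlib 3.10.9.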

Additional observations from a re-analysis of the deposited data

How the results depend on the processing

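Hk2 was at least 2-fold lower under every alternative that kept it, with log2 ratios from -3.41 (pseudocount of 0.1) to -1.67 (pseudocount of 5). A mean of at least 10 FPKM removes Hk2 and Pfkl, which leaves 0 genes lower among 8. The number of the 10 genes at least 2-fold higher went from 0 to 1 after centring (Pfkl), beside 1472 of all 10123 genes. With the TMM factor it was 3 (Gapdh, Gpi1 and Pfkl), beside 1675 of all 10123 genes. The same 3 passed a 1.5-fold threshold as deposited, beside 1901 of all 10123 genes. The median log2 ratio of 0.38 became 0.68 after centring, 0.77 with the TMM factor, 0.017 with equal sums and 0.16 with the length and GC trend removed, where Aldoa (-0.10) and Pgk1 (-0.02) also lay below 0. Counted over all 3 phosphofructokinase genes, the share of Pfkp was 52.4% in place of 63.9% at 100 µM and 36.0% in place of 55.4% at 300 µM. Over all 10123 genes compared, a pseudocount of 5 gave 258 higher and 1630 lower, and the TMM factor 1675 and 2221. A mean of at least 10 FPKM left 5340 genes, of which 358 were higher and 1141 lower. No paired analysis was possible because each dose has 1 library. Depth limits the level of Hk2 at 300 µM most, at an estimated 142 reads. The variation between cultures is unknown.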
